A study of Saccharomyces cerevisiae with 14 samples.

Results

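The comparison described here sets 24 min after a pulse of glutamine against 7 min after it, and it covers what began, went on or turned round once the first response was under way. Its members were the 3 arrays labelled 24 min and the 3 labelled 7 min, which are 6 of the 14 Affymetrix Yeast Genome 2.0 arrays of the series, chosen by their time labels. Each of the experiments coded BY003, BY008 and BY012 gave 1 array at each time, and arrays were paired by that code. All arrays hold total RNA of the wild-type budding yeast strain YSBN6, grown exponentially in a batch fermentor with glucose as carbon source and proline as nitrogen source until glutamine was added at once. The 3 arrays taken 10 min before the pulse, written -10 min, served to state each gene's first response, the difference of 7 from -10 min. Single arrays of BY008 at 3, 10, 14, 56 and 120 min were used without a test. The design text calls the replicated times biological triplicates, and the labels do not say whether arrays of 1 code came from 1 culture. A culture kept on proline over the same minutes was not analysed here.

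Proline is a poor nitrogen source for budding yeast and glutamine a preferred one. On proline the GATA factors Gln3 and Gat1 activate genes for the uptake and breakdown of secondary nitrogen compounds, Dal80 and Gzf3 repress the same genes, and a good source shuts the set off, which is called nitrogen catabolite repression. Extracellular amino acids are sensed in addition by the SPS sensor of the plasma membrane (Ssy1, Ptr3 and Ssy5), which releases the factors Stp1 and Stp2 to activate amino acid permease genes, while the kinase complex TORC1 couples nitrogen supply to ribosome production and restrains stress genes and autophagy.

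Values are log2 of the deposited intensity per probe set, where 1 unit is a doubling, and 5449 genes with a listed S. cerevisiae probe set were tested. The median log2 value over genes was 10.86, 10.85 and 10.79 at 24 min, against 10.95, 10.89 and 10.91 at 7 min, in the order BY003, BY008 and BY012 that is kept for all array values below. Probe sets of the other yeast on the array, which have no intended target here, had medians between 4.61 and 4.91 on the 14 arrays, and the highest value of any probe set was 15.14. Deviations from the time means correlated between the 24 and 7 min arrays of 1 experiment with r = 0.21 in BY003, 0.35 in BY008 and 0.44 in BY012 over genes, which are not independent replicates. Differences are written 24 minus 7 min (n = 3 pairs of arrays) with the standard error of a limma fit with experiment as a block. The fit takes in all 9 arrays at the replicated times. A gene therefore has the same standard error for each of its differences, and scatter before the pulse enters it too. The p values come from the same fit and are adjusted by Benjamini-Hochberg over all genes. A gene is called, and said to rise or fall, at an adjusted p under 0.05. Gene lists are described by their counts and medians, to be read beside the shares and the median of all genes, and a range in brackets after a count gives its lowest and highest value over the alternatives of block, scaling, fit options, probe sets and left-out arrays, where these move it by more than 1.5-fold. Stricter thresholds and a filter on dim genes are not part of that range. From 7 to 24 min 16.6% of all genes were called higher and 24.8% lower. At 7 against -10 min the shares were 18.0% higher and 42.6% lower, and the median of all genes was -0.33. A list near these shares is not set apart by its counts, whether or not its paragraph says so. In a bulk culture, fewer cells holding a transcript and less of it per cell cannot be told apart.

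Between 7 and 24 min, 902 genes rose (16.6% of those tested) and 1350 fell (24.8%), so that 2252 genes (41.3%) were called. At 7 against -10 min the same fit called 3302 genes (60.6%), of which 981 were higher (18.0%) and 2321 lower (42.6%), and at 24 against -10 min it called 3972 (72.9%). The median absolute difference over all genes was 0.40 in the second interval and 0.57 in the first. Large changes between 7 and 24 min ran mostly downward: 676 genes fell and 178 rose at least 2-fold, and 194 fell and 42 rose at least 4-fold. At 7 against -10 min, by comparison, 833 genes were called at least 2-fold lower and 518 at least 2-fold higher. The median difference of all genes was -0.01, or -0.05 in BY003, 0.06 in BY008 and -0.05 in BY012. All 3 experiments gave 1 sign in 74.0% of genes and in 2251 of the 2252 called genes. The arrays of 24 and 7 min did not overlap for 3072 genes (56.4% of those tested) and for 2042 of the called genes.

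The balance of rises and falls depended on scaling. With each array's median subtracted, 1177 genes were called higher and 1275 lower, and after quantile normalization 1268 higher and 1037 lower, with the median of all genes at 0.07 and 0.11. The number called also depended on single experiments, since 948 genes were called without BY003 (262 higher and 686 lower), 1389 without BY008 and 2054 without BY012.

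Of the 902 genes that rose, 354 started after 7 min (not called at 7 against -10 min and under 0.5 log2 there), 189 had risen before, and 345 had fallen before and turned round. Of the 1350 that fell, 395 started after 7 min, 808 had fallen before and 73 had risen before. The remaining 14 rises and 74 falls had a first response of at least 0.5 log2 that was not called. The classes rest on the mean over experiments, and single experiments can differ from it. Genes that went on falling had a median difference of -0.89 at 7 against -10 min and a further -1.04 from 7 to 24 min. Genes that turned upward had medians of -0.73 and then 0.66, and at 24 min 239 of these 345 no longer differed from -10 min by the test, 71 were still lower and 35 were higher. Of the 73 that turned downward (medians 1.0 and -1.0), 38 were not called at 24 against -10 min, 18 were still higher and 17 were lower. A further 719 genes that were higher and 1168 that were lower at 7 min were not called from 7 to 24 min, which does not show that they stayed level.

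Without BY003 the classes held 119 genes that started upward, 30 that went on rising, 63 that turned upward, 137 that started downward, 344 that went on falling and 26 that turned downward. Without BY008 the first 3 of these held 194, 60 and 136 genes, and 466 went on falling. Both comparisons share the 7 min arrays, so that an error in those arrays favours opposite signs, and the classes are a description. A first response read from the 3 min array of BY008, which enters neither comparison, left 77 genes in the class that went on rising, 40 in the one that went on falling, 39 that turned upward, 57 that turned downward, 786 that started upward and 1253 that started downward, at a minimum of 0.5 log2. At 3 min the first response was under way in part only, as the plot of the 6 classes in BY008 shows. Over that course the classes separated step by step between 7 and 24 min, and all 4 that did not turn round moved back toward the -10 min level by 120 min.

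**Figure D1:**
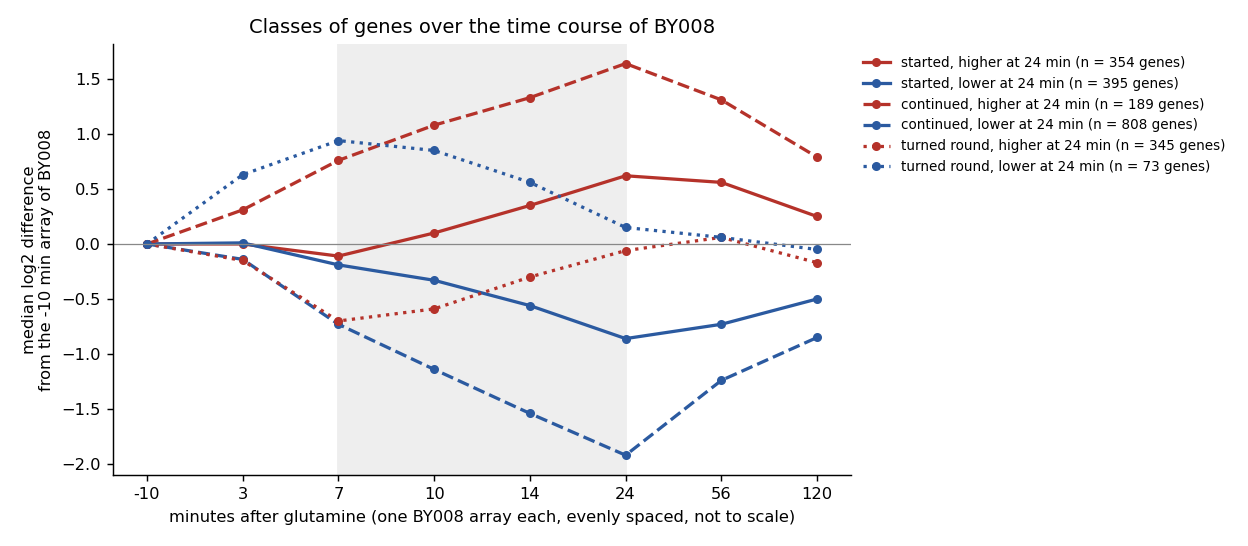
Median log2 difference from the -10 min array of BY008 over the genes of each class (vertical axis) at each sampled time in minutes (horizontal axis, evenly spaced), 1 array per time, with the interval from 7 to 24 min shaded. Classes that continued lower reach -1.92 and those that continued higher 1.64 at 24 min, while the class that turned upward returns to -0.06.

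The 2 largest rises after 7 min belonged to amino acid permease genes under the SPS sensor. BAP3, for a branched-chain amino acid permease, stood at 10.28, 9.27 and 10.41 at 24 min, against 5.91, 6.22 and 6.29 at 7 min. BAP2, for a related permease, stood at 11.41, 11.85 and 11.40 at 24 min, against 7.62, 8.13 and 7.46 at 7 min, and AGP1, for a permease of broad range, at 13.13, 13.46 and 13.58 at 24 min, against 10.09, 9.33 and 9.87 at 7 min. Every 24 min array of these genes lay at least 3 log2 units above the 7 min array of its experiment, and the times did not overlap. The differences were 3.85 ± 0.26 for BAP3, which is 14.4-fold (adjusted p = 9.76e-05), 3.81 ± 0.14 for BAP2 (adjusted p = 4.5e-05) and 3.62 ± 0.30 for AGP1 (adjusted p = 0.000183). BAP3 and AGP1 were classed as started, with first responses of 0.07 ± 0.26 (adjusted p = 0.83) and 0.16 ± 0.30 (adjusted p = 0.668). BAP2 had a called first response of 0.97 ± 0.14. AGP1 stood at 9.19, 9.13 and 10.52 at -10 min, so that by 7 min it was higher in BY003 and lower in BY012.

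TAT2, for the tryptophan permease, rose by 3.03 ± 0.15 (adjusted p = 4.73e-05) after a first rise of 1.55 ± 0.15. TAT1, for a permease of tyrosine and other amino acids, stood at 10.38, 11.15 and 9.67 at 24 min, against 8.84, 8.56 and 8.53 at 7 min. The gap of TAT1 was widest in BY008 and narrowest in BY012, the times did not overlap, and the difference was 1.76 ± 0.31 (adjusted p = 0.00376). GNP1, for the high-affinity glutamine permease, had its large step before 7 min (2.21 ± 0.26) and stood at 12.86, 13.28 and 13.00 at 24 min, against 12.48, 11.71 and 12.83 at 7 min, with a difference of 0.71 ± 0.26 that did not pass the test (adjusted p = 0.066). GNP1 was called with array medians subtracted, after quantile normalization, without BY012 and without 24 min BY012 (adjusted p from 0.0203 to 0.374 over all alternatives). In the list of amino acid permeases under the SPS sensor 5 of 8 rose and 0 (0 to 1) fell, with a median of 2.40 (BY003 2.20, BY008 2.83, BY012 2.16), and the members without a call were GNP1, DIP5 for acidic amino acids and PTR2 for small peptides. At 7 against -10 min 3 members were called higher and 2 lower, the latter being DIP5 and PTR2. The lowest member of the list from 7 to 24 min was at -0.79, without a call.

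**Figure D2:**
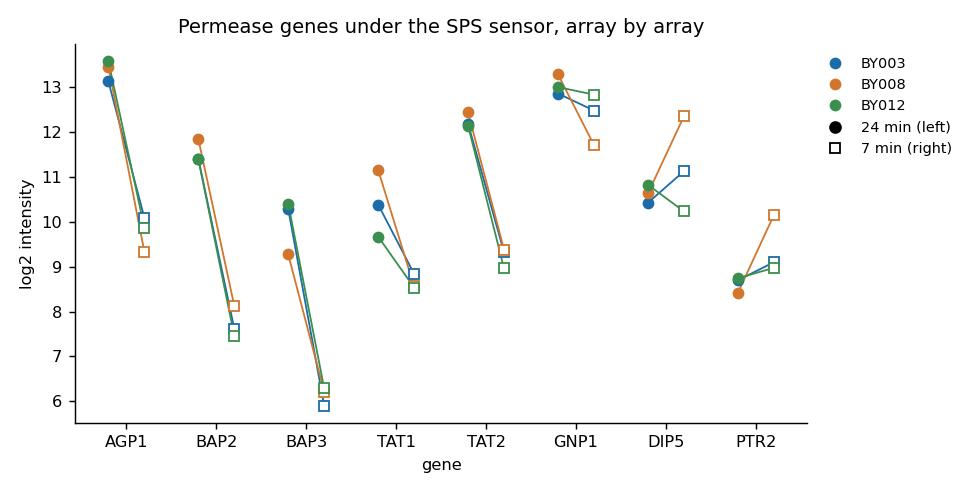
Log2 intensity (vertical axis) of the 8 permease genes under the SPS sensor, with filled circles for 24 min, open squares for 7 min and a line for each experiment. AGP1, BAP2, BAP3, TAT1 and TAT2 lie higher at 24 min in all 3 experiments, while GNP1 had reached a high level by 7 min. DIP5 and PTR2 were not called from 7 to 24 min.

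Outside that system more permease genes fell than rose, as was so over all genes (24.8% and 16.6%). Of 14 other amino acid permeases, 1 rose and 5 (3 to 7) fell, with a median of -0.96. MUP3, for a low-affinity methionine permease, stood at 11.32, 9.15 and 11.06 at 24 min, against 13.12, 13.72 and 13.41 at 7 min. All 3 arrays at 24 min lay below those at 7 min, with a difference of -2.91 ± 0.46 (adjusted p = 0.0025). AGP2, for a plasma membrane regulator of polyamine and carnitine uptake, differed by -1.66 ± 0.17 after a first difference of -1.57 ± 0.17, and PUT4, for the proline permease, by -1.76 ± 0.32 after -1.77 ± 0.32. GAP1, for the general amino acid permease, differed by -0.89 ± 0.19 (adjusted p = 0.0092). GAP1 lost its call without BY003, without BY008 and without 7 min BY003 and 7 min BY008 in turn (adjusted p from 0.00314 to 0.108 over all alternatives). For the list other amino acid permeases the count lower was 3 without BY008. PUT4 and UGA4, among these falls, are counted again below under proline use and GABA use.

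Most genes under nitrogen catabolite repression fell. Of 39 measured, 32 fell and 2 (1 to 2) rose between 7 and 24 min, with a median of -1.34 (BY003 -1.50, BY008 -1.40, BY012 -0.94), after a first response in which 30 were called lower and the median was -1.23. Of the 32, 24 had fallen before and 4 started after 7 min. MEP2, for the high-affinity ammonium permease, stood at 11.30, 11.38 and 11.53 at 24 min, against 14.37, 14.35 and 13.93 at 7 min. Its 24 min arrays lay close together and below every 7 min array, with a difference of -2.82 ± 0.16 (adjusted p = 5.06e-05) after a first response of -0.59 ± 0.16. DAL5, for the allantoate permease, stood at 11.69, 11.05 and 11.28 at 24 min, against 14.26, 14.47 and 13.62 at 7 min, and its difference was -2.78 ± 0.22 (adjusted p = 0.00014) after a first response of -0.48 ± 0.22 that was not called. DAL4, for the allantoin permease, was at -3.16 ± 0.40, LEE1, for a zinc finger protein, at -3.17 ± 0.29 and APE1, for the vacuolar aminopeptidase I, at -2.91 ± 0.32, all called.

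Genes for the use of gamma-aminobutyrate (GABA) fell steeply. UGA1, for the GABA transaminase, stood at 9.18, 9.12 and 8.70 at 24 min, against 12.51, 12.77 and 11.99 at 7 min. UGA2, for succinate semialdehyde dehydrogenase, the next enzyme, stood at 8.0, 8.01 and 7.72 at 24 min, against 10.73, 10.80 and 11.08 at 7 min. Neither gene's arrays overlapped between times, and the differences were -3.42 ± 0.30 for UGA1 (adjusted p = 0.000208) and -2.95 ± 0.28 for UGA2 (adjusted p = 0.00031). UGA4, for the GABA permease, was at -2.68 ± 0.57 (adjusted p = 0.00831). UGA4 lost its call without BY008 (adjusted p from 0.000591 to 0.0504 over all alternatives). UGA3, for the activator of these genes, rose by 0.73 ± 0.15 (adjusted p = 0.00711), so that in GABA use 3 of 4 fell and 1 rose. For proline use, 2 of 4 fell and 0 (0 to 1) rose: PUT4 (above) and PUT2, for the second enzyme of proline breakdown, with -1.05 ± 0.16 (adjusted p = 0.00205) after a first response of -1.56 ± 0.16.

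The GATA factor genes themselves moved in different directions. GZF3, for a repressor, stood at 10.79, 10.31 and 11.20 at 24 min, against 8.64, 8.15 and 9.42 at 7 min. Its 24 min arrays were all above its 7 min arrays, and the rise of 2.03 ± 0.21 (adjusted p = 0.000387) followed a first fall with a difference of -2.46 ± 0.21, so that GZF3 turned round and was not called at 24 against -10 min (-0.43 ± 0.21, adjusted p = 0.0934). GLN3, for an activator, stood at 11.05, 10.80 and 11.40 at 24 min, against 10.17, 9.94 and 10.21 at 7 min, and its rise of 0.98 ± 0.13 (adjusted p = 0.0011) started after 7 min. DAL80, for a repressor, was at -0.70 ± 0.23 (adjusted p = 0.0407) after a first response of -2.74 ± 0.23, and GAT1, for an activator, at -0.72 ± 0.18 (adjusted p = 0.0152). URE2, whose product keeps Gln3 out of the nucleus on good sources, did not pass the test (0.10 ± 0.15, adjusted p = 0.635). DAL80 lost its call in a fit of the 7 and 24 min arrays alone, with array medians subtracted, after quantile normalization, without BY003, without BY008 and without 24 min BY003, 24 min BY008, 7 min BY003 and 7 min BY008 in turn (adjusted p from 0.0231 to 0.23 over all alternatives). GAT1 lost its call without BY003, without BY008 and without 24 min BY003, 7 min BY008 and 7 min BY012 in turn (adjusted p from 0.0034 to 0.096 over all alternatives). In the list GATA factors and Ure2 the counts were 2 higher and 2 (0 to 2) lower of 5.

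Of 5 glutamate and glutamine enzymes, 4 fell and 0 rose, with a median of -0.91. GDH2, whose glutamate dehydrogenase splits glutamate, was at -1.60 ± 0.35 (adjusted p = 0.00948), GDH3, for a glutamate dehydrogenase that forms glutamate, at -1.31 ± 0.20 (adjusted p = 0.00236), and GLT1, for glutamate synthase, at -0.91 ± 0.18 (adjusted p = 0.0056). GLN1, for glutamine synthetase, stood at 12.61, 12.47 and 12.34 at 24 min, against 13.04, 13.71 and 13.02 at 7 min. The 24 min arrays of GLN1 were lower in each experiment, with a difference of -0.78 ± 0.17 (adjusted p = 0.00968), whereas GDH1, the main glutamate-forming enzyme gene, was at -0.54 ± 0.26 (adjusted p = 0.13) with overlapping arrays. GLT1 lost its call without BY003 (adjusted p from 0.003 to 0.0562 over all alternatives). GLN1 lost its call without BY008 and without 7 min BY008 (adjusted p from 0.00783 to 0.0722 over all alternatives).

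Of the amino acid pathways examined, lysine synthesis had the largest share of rising genes: 8 (5 to 9) of 9 members rose and 0 fell, with a median of 1.56 (BY003 1.55, BY008 1.22, BY012 1.68), and the lowest member was at 0.38. LYS20, for homocitrate synthase, the first enzyme of the pathway, stood at 13.90, 13.39 and 14.22 at 24 min, against 11.30, 11.07 and 11.20 at 7 min. Its rise of 2.64 ± 0.17 (adjusted p = 6.64e-05) turned round a first response of -0.89 ± 0.17 and left it above -10 min (1.75 ± 0.17). LYS1, for the last enzyme, rose by 2.51 ± 0.26 (adjusted p = 0.000452) after -0.73 ± 0.26. LYS2, for the aminoadipate reductase, started after 7 min, with 1.72 ± 0.13 (adjusted p = 0.000148) after -0.29 ± 0.13. For the list lysine synthesis the count higher was 5 without BY003.

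The other amino acid pathways had fewer calls. The counts were 2 (0 to 3) higher and 0 (0 to 1) lower of 7 for arginine synthesis (median 0.51), 3 (1 to 4) higher and 0 lower of 7 for histidine synthesis (median 0.43) and 2 (0 to 4) higher and 0 lower of 11 for aromatic amino acid synthesis (median 0.38). For branched-chain amino acid synthesis they were 0 (0 to 2) higher and 1 (1 to 3) lower of 11 (median 0.10), and for the serine, threonine and aspartate family 1 (1 to 4) higher and 0 (0 to 1) lower of 12 (median 0.21). HIS6, for an isomerase of histidine synthesis, rose by 0.88 ± 0.15 (adjusted p = 0.00335). ASN1, for asparagine synthetase, turned round, with 1.69 ± 0.37 (adjusted p = 0.00903) after -0.98 ± 0.37 (adjusted p = 0.0486). BAT2, for the cytosolic branched-chain transaminase, which also serves the breakdown of these amino acids, fell (-1.55 ± 0.27, adjusted p = 0.00348). GCN4, for the general activator of amino acid synthesis genes, was at -0.17 ± 0.11 (adjusted p = 0.261). For the list histidine synthesis the count higher was 1 without BY003 and without BY012.

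MET28, for a cofactor of the activator of sulfur genes, stood at 10.52, 9.22 and 10.71 at 24 min, against 13.00, 13.40 and 13.41 at 7 min. Its 24 min arrays were lower in all 3 experiments, most so in BY008, and the difference of -3.12 ± 0.47 (adjusted p = 0.00201) turned round a first response of 1.30 ± 0.47 (adjusted p = 0.0432). MET2, for the enzyme that forms acetylhomoserine, was at -2.71 ± 0.53 (adjusted p = 0.006) after 1.43 ± 0.53 (adjusted p = 0.0483), and MET32, for a zinc finger activator, at -2.75 ± 0.61 (adjusted p = 0.0102). Of 26 genes in sulfur amino acid metabolism, 7 (2 to 12) fell and 0 (0 to 1) rose, a share of falls near that of all genes, and the median was -0.75 (BY003 -0.50, BY008 -1.66, BY012 -0.21). The first response differed between experiments, with list medians of -0.29 in BY003, 0.76 in BY008 and 2.33 in BY012. At -10 min MET28 stood at 12.82, 11.96 and 11.11, close to its 7 min array in BY003 and well below it in BY012. MET32 lost its call without BY008 and without 7 min BY008 (adjusted p from 0.00147 to 0.0955 over all alternatives). For the list sulfur amino acid metabolism the count lower was 2 without BY008, 11 without BY012 and 4 after quantile normalization.

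ADE8, for an early enzyme of purine synthesis, rose by 1.16 ± 0.18 (adjusted p = 0.00206), and of 18 genes for purine synthesis 1 (1 to 4) rose and 1 (0 to 1) fell (median 0.11). URA3 and URA4, for enzymes of the pyrimidine route, rose by 0.87 ± 0.14 and 0.63 ± 0.13 (adjusted p = 0.003 and adjusted p = 0.00676), and for pyrimidine synthesis 4 (0 to 4) of 10 rose and 1 (0 to 2) fell (median 0.23). For one-carbon metabolism limma called 0 (0 to 2) higher and 0 (0 to 1) lower of 10 (median 0.14), and at an unadjusted p under 0.05 there were 1 higher and 0 lower. URA3 lost its call without BY003 (adjusted p from 0.00155 to 0.0512 over all alternatives). URA4 lost its call without BY003 and without BY008 (adjusted p from 0.00219 to 0.0877 over all alternatives). For the list pyrimidine synthesis the count higher was 0 without BY003 and 1 without BY008.

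The ribosome assembly genes made their large step before 7 min, and few passed the test after it. All 68 measured small subunit assembly factors were called higher at 7 against -10 min (median 2.69), and between 7 and 24 min 5 (0 to 16) rose and 0 fell, with a median of 0.22. Of 75 large subunit assembly factors, 73 were called higher at 7 min (median 2.60), and 8 (2 to 15) rose and 0 fell after it (median 0.16). REA1, for a large ATPase that strips assembly factors from the large subunit, stood at 13.86, 13.84 and 13.99 at 24 min, against 12.58, 11.88 and 12.41 at 7 min, and its rise of 1.61 ± 0.26 (adjusted p = 0.00269) came after a first response of 0.01 ± 0.26. At -10 min REA1 stood at 13.08, 11.93 and 11.83, so that its first response was downward in BY003 and upward in BY012. JJJ1, for a late cytoplasmic assembly factor, rose by 0.89 ± 0.13 after 1.43 ± 0.13. DBP2, for an RNA helicase, and NSR1, for nucleolin, had first responses of 4.40 ± 0.42 and 4.39 ± 0.32 and from 7 to 24 min were at -0.53 ± 0.42 (adjusted p = 0.349) and -0.35 ± 0.32 (adjusted p = 0.423). For the list small subunit assembly factors the count higher was 0 without BY003, 2 without BY008 and without BY012, 1 without the replicate block, 9 with array medians subtracted and 8 after quantile normalization. For the list large subunit assembly factors the count higher was 3 without BY003, 2 without BY008 and 13 with array medians subtracted.

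The counts were 4 (0 to 7) higher and 3 (0 to 5) lower of 36 for RNA polymerases I and III and their factors (median 0.12) and 5 (0 to 7) higher and 0 lower of 18 for the RNA exosome (median 0.23). Of 37 tRNA modification enzymes, 13 (1 to 16) rose and 1 (0 to 1) fell (median 0.34), among them MOD5, for a transferase that modifies tRNA next to the anticodon, with 0.75 ± 0.13 (adjusted p = 0.0038). RRN6, for a factor of RNA polymerase I, rose by 0.70 ± 0.16 (adjusted p = 0.0103). The 3 falls in its list were TFC3 (-0.81 ± 0.12, adjusted p = 0.00208), TFC4 (-1.03 ± 0.27, adjusted p = 0.0192) and TFC8 (-0.63 ± 0.20, adjusted p = 0.0356). Each of these falls went on from a called first fall. RRN6 lost its call without BY003, without BY008 and without 7 min BY008 (adjusted p from 0.00296 to 0.0845 over all alternatives). For the list RNA polymerases I and III and their factors the count higher was 0 without BY003 and without BY008 and 7 with array medians subtracted and after quantile normalization. For the list RNA polymerases I and III and their factors the count lower was 0 without BY003. For the list RNA exosome the count higher was 0 without BY003, 1 without BY008 and 3 without the replicate block. For the list tRNA modification enzymes the count higher was 1 without BY003 and without BY008.

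Many genes for mitochondrial ribosomal proteins rose after 7 min, and few for cytosolic ones. Of 127 genes for cytosolic ribosomal proteins, 67 were called higher at 7 against -10 min, and between 7 and 24 min 2 (0 to 15) rose and 0 (0 to 1) fell, with a median of 0.17 (BY003 0.15, BY008 0.20, BY012 0.14). Of 67 genes for mitochondrial ribosomal proteins, 43 were called lower at 7 against -10 min, where 42.6% of all genes were. Their median in that first response was -0.44, beside -0.33 over all genes, so that much of it was shared with the whole array. From 7 to 24 min 44 (7 to 51) rose and 0 (0 to 1) fell, with a median of 0.46 (BY003 0.39, BY008 0.43, BY012 0.55). Of those 44, 29 turned round and 14 started after 7 min, and the list's median at 24 against -10 min was 0.04. RSM19, for a protein of the small mitochondrial subunit, stood at 11.82, 11.37 and 11.70 at 24 min, against 10.69, 10.25 and 10.35 at 7 min. Each 24 min array of RSM19 lay above every 7 min array. The rise was 1.20 ± 0.16 (adjusted p = 0.00123) after a first response of -0.45 ± 0.16 (adjusted p = 0.042), and MRP7, of the large subunit, rose by 0.94 ± 0.12 (adjusted p = 0.00121) after -0.57 ± 0.12. For the list mitochondrial ribosomal proteins the count higher was 7 without BY003 and 18 without BY008.

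In the rest of the translation machinery 0 (0 to 2) of 37 translation factors rose and 1 (0 to 3) fell (median 0.03), 1 (0 to 5) of 20 cytosolic aminoacyl-tRNA synthetases rose and 0 fell (median 0.17), and of 7 ribosome-linked chaperones 1 (0 to 2) rose and 1 (0 to 1) fell (median 0.15), by limma. Over all lists 20 had 0 members called higher and 15 had 0 called lower, and at an unadjusted p under 0.05 at most 2 and 1 members of such a list were found in that direction. Among 10 regulators of ribosome genes 2 (1 to 2) fell and 0 (0 to 2) rose. IFH1, for the coactivator of ribosomal protein genes, stood at 12.06, 12.14 and 12.12 at 24 min, against 12.81, 12.29 and 12.93 at 7 min. Its arrays at 24 min were lower in each experiment but least in BY008, and the difference of -0.57 ± 0.17 (adjusted p = 0.0315) followed a first rise of 2.26 ± 0.17. CRF1, for a corepressor of the same genes, was at -1.61 ± 0.31 (adjusted p = 0.00535) after -1.23 ± 0.31. TOD6 and DOT6, for repressors of ribosome assembly genes, were at 0.30 ± 0.26 and 0.18 ± 0.12, and SFP1, for an activator, at 0.44 ± 0.17 (adjusted p = 0.379, adjusted p = 0.243 and adjusted p = 0.0814). IFH1 lost its call without the replicate block, after quantile normalization, without BY003, without BY012 and without 24 min BY003, 24 min BY012, 7 min BY003, 7 min BY008 and 7 min BY012 in turn (adjusted p from 0.00881 to 0.235 over all alternatives). SFP1 was called with array medians subtracted, after quantile normalization and without the -10 min array of BY012 (adjusted p from 0.0247 to 0.341 over all alternatives).

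**Figure D3:**
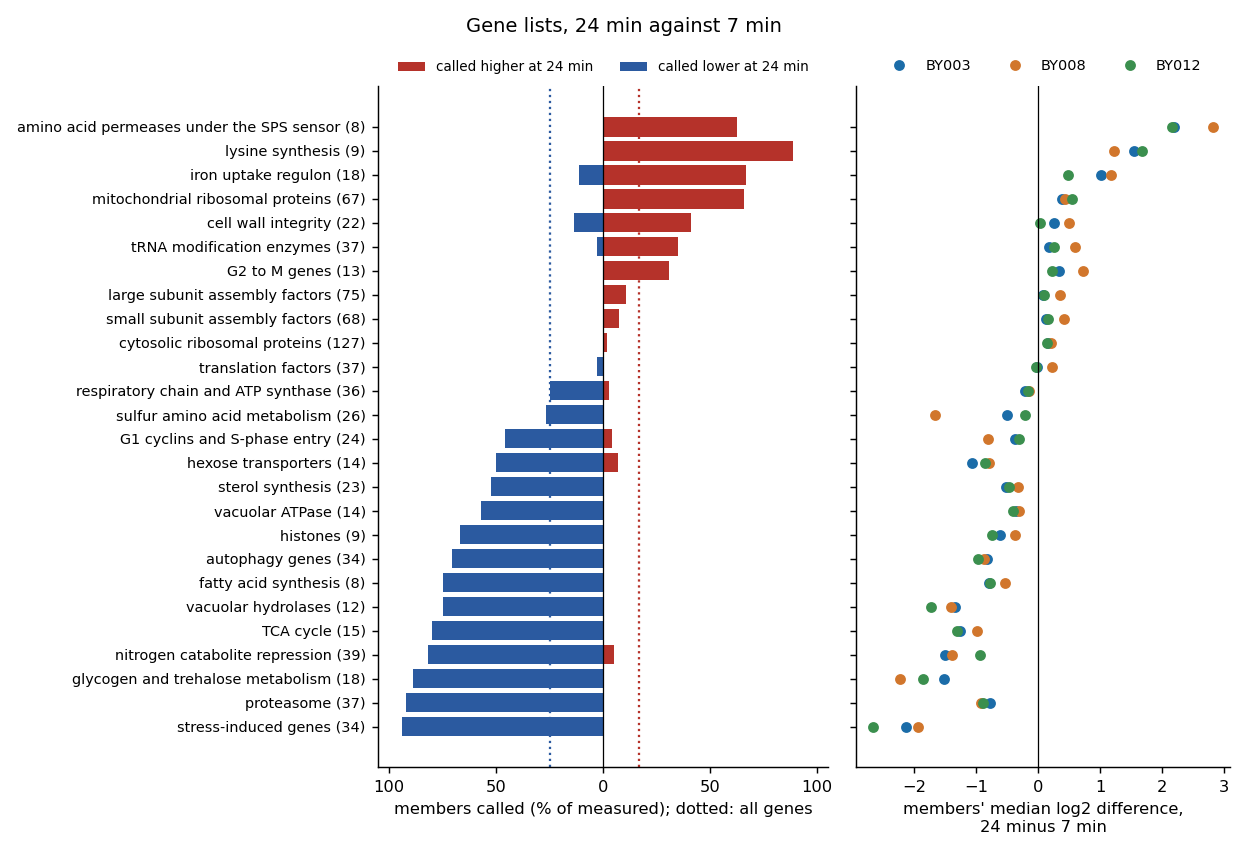
A selection of the 55 lists is shown, and GABA use is among those left out. Left, share of the measured members of each list shown called higher (red, right of 0) or lower (blue, left of 0) at 24 against 7 min, in percent, with dotted lines at the shares over all genes (16.6% and 24.8%). Right, median log2 difference of the members in each experiment, where the permeases under the SPS sensor lie highest in each experiment and stress-induced genes lie at -1.94 or lower.

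Stress and reserve carbohydrate genes fell in a body after 7 min. Of 34 stress-induced genes, 32 fell and 0 rose, with a median of -2.27 (BY003 -2.13, BY008 -1.94, BY012 -2.67), against a median of -1.22 in the first response, in which 24 were called lower. CYC7, for the minor isoform of cytochrome c, stood at 6.24, 6.27 and 6.28 at 24 min, against 10.24, 10.29 and 10.38 at 7 min. The 24 min arrays of CYC7 lay close together in all experiments, and its difference of -4.04 ± 0.31 (adjusted p = 0.00014) followed a first response of -1.69 ± 0.31. HXK1, for a hexokinase isoenzyme, started to fall after 7 min (-3.24 ± 0.16, adjusted p = 4.73e-05, after -0.21 ± 0.16), and SOL4, for a lactonase of the pentose phosphate pathway, went on falling (-2.91 ± 0.18 after -1.68 ± 0.18).

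In glycogen and trehalose metabolism 16 of 18 genes fell and 0 rose, with a median of -1.64. GPH1, for glycogen phosphorylase, stood at 9.44, 8.11 and 9.84 at 24 min, against 12.73, 12.04 and 13.18 at 7 min. Its lowest array was that of BY008 at 24 min and at 7 min, and the difference was -3.52 ± 0.16 (adjusted p = 4.73e-05) after -0.76 ± 0.16. GAC1, for a phosphatase subunit that activates glycogen synthase, was at -3.41 ± 0.37 (adjusted p = 0.00051), GDB1, for the glycogen debranching enzyme, at -2.36 ± 0.22 (adjusted p = 0.000264), and ATH1, for acid trehalase, at -2.34 ± 0.21 (adjusted p = 0.000259). GAC1 serves the making of glycogen, and GPH1, GDB1 and ATH1 the breakdown of reserves.

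Genes for self-digestion and protein breakdown fell as well. Of 34 autophagy genes 24 (12 to 25) fell and 0 (0 to 2) rose (median -0.91), and 19 of these falls went on from the first response. ATG2, for a lipid transfer protein of autophagosome growth, stood at 7.49, 7.38 and 7.07 at 24 min. At 7 min its arrays gave 10.36, 10.22 and 10.58, and the difference was -3.07 ± 0.27 (adjusted p = 0.000234). Its first response of -0.45 ± 0.27 was not called, which classed it as started. ATG2 stood at 10.29, 10.74 and 11.49 at -10 min, so that by 7 min it was already lower in BY008 and BY012. ATG39, for a receptor of nuclear autophagy, was at -2.82 ± 0.20 after -1.54 ± 0.20, and ATG34, for a receptor that carries the mannosidase Ams1 to the vacuole, at -2.52 ± 0.19 after -1.07 ± 0.19. Of 12 vacuolar hydrolases 9 fell and 0 rose (median -1.40). AMS1, for that vacuolar mannosidase, stood at 7.60, 7.07 and 7.15 at 24 min, against 11.33, 11.41 and 11.55 at 7 min. All 3 experiments dropped by a similar amount, and the difference of -4.16 ± 0.24 (adjusted p = 5.06e-05) followed a first response of -0.66 ± 0.24. RNY1, for the vacuolar ribonuclease, and PRB1, for vacuolar proteinase B, were at -2.81 ± 0.20 and -2.25 ± 0.23. For the list autophagy genes the count lower was 12 without BY003.

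Of 37 proteasome genes 34 (20 to 34) fell and 0 rose, with a median of -0.91 (BY003 -0.78, BY008 -0.93, BY012 -0.89), and 30 of the falls went on from the first response, which had a median of -0.65. PRE3, for a catalytic subunit of the core particle, stood at 10.37, 11.00 and 10.13 at 24 min, against 12.72, 13.08 and 12.34 at 7 min. Its values were highest in BY008 at both times, the times did not overlap, and the difference was -2.22 ± 0.19 (adjusted p = 0.000216). The core subunit genes PUP3 and PRE1 were at -2.13 ± 0.23 and -2.04 ± 0.18, and ECM29, for a protein that tethers the core to its cap, at -2.75 ± 0.28. RPN4, for the activator of proteasome genes, was at 0.06 ± 0.28 (adjusted p = 0.871) after a called first response of -1.61 ± 0.28. Of 20 stress chaperones 5 (3 to 7) fell and 0 (0 to 3) rose (median -0.15), a share near that of all genes, among them SSA1, for a cytosolic chaperone of the Hsp70 family (-1.85 ± 0.14, adjusted p = 0.000125). For the list proteasome the count lower was 20 without BY003. For the list stress chaperones the count lower was 3 without BY003.

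**Figure D4:**
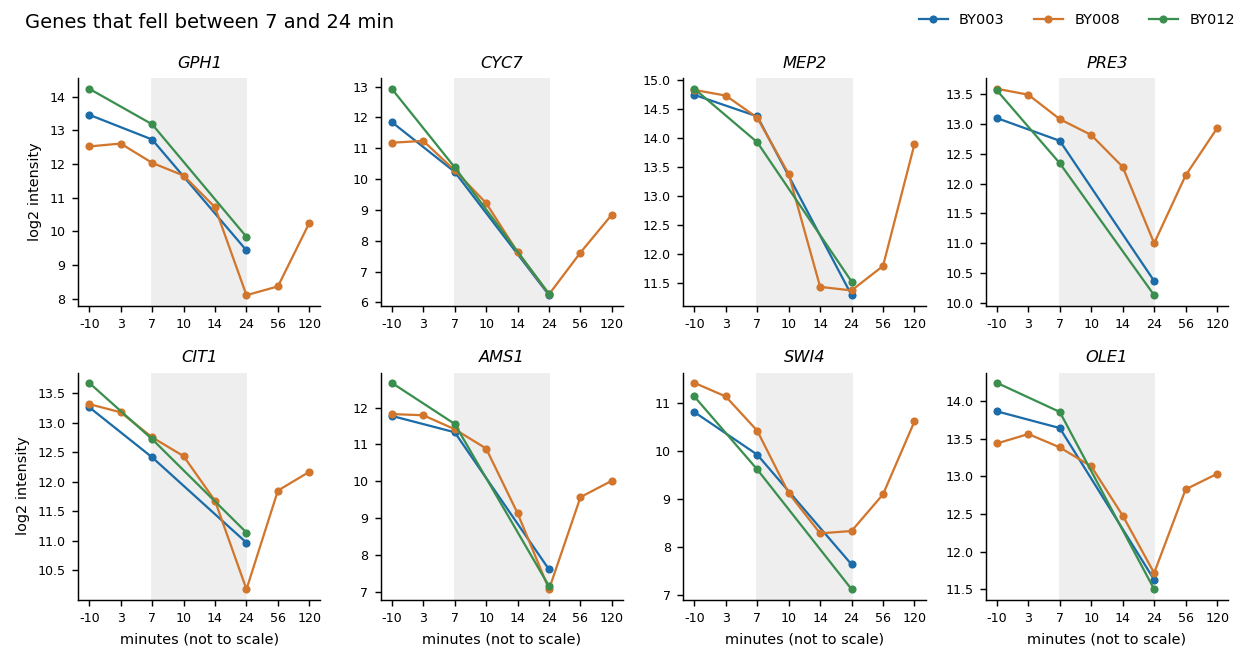
Log2 intensity (vertical axes) against minutes after the pulse (horizontal axes, evenly spaced) for 8 genes that fell from 7 to 24 min (shaded), 1 line per experiment, with all 8 times in BY008. In all 3 experiments each gene lies lower at 24 min than at 7 min, and in BY008 each lies higher at 120 min than at 24 min.

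The largest fall of any gene between 7 and 24 min was that of MTH1, for a corepressor of hexose transporter genes that is removed when glucose is sensed. MTH1 stood at 8.17, 8.30 and 8.50 at 24 min, against 12.91, 12.88 and 13.26 at 7 min. Its 24 min arrays and 7 min arrays were tightly grouped and far apart, and the difference of -4.69 ± 0.26 (adjusted p = 5.06e-05) turned round a first rise of 1.57 ± 0.26 and left it far below -10 min (-3.12 ± 0.26). MIG1, for the repressor of glucose-repressed genes, stood at 9.32, 9.53 and 9.47 at 24 min, against 12.70, 12.57 and 12.98 at 7 min, and its fall (-3.31 ± 0.21, adjusted p = 6.83e-05) followed a small first rise (0.57 ± 0.21, adjusted p = 0.046). NRG1, for another repressor of glucose-repressed genes, went the opposite way. NRG1 stood at 12.35, 11.89 and 12.30 at 24 min, against 8.58, 8.15 and 9.13 at 7 min, rose by 3.56 ± 0.22 (adjusted p = 6.64e-05) after a first response of -2.91 ± 0.22, and on the mean ended above -10 min (0.65 ± 0.22, adjusted p = 0.0285). At -10 min NRG1 stood at 11.63, 10.66 and 12.30, so that in BY012 it only regained its start.

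Of the hexose transporters, 7 of 14 fell and 1 (0 to 1) rose between 7 and 24 min (median -0.91), and 5 of the 7 had been called higher at 7 min. HXT2, for a transporter of high affinity, stood at 11.38, 11.50 and 10.89 at 24 min, against 14.24, 14.34 and 14.25 at 7 min. The 7 min arrays of HXT2 were almost equal and every 24 min array was lower, with a difference of -3.01 ± 0.20 (adjusted p = 8.73e-05) after a first rise of 1.69 ± 0.20. HXT11, one of the called falls, gave 3.47, 3.38 and 3.64 at 24 min, under the median of the probe sets of the other yeast, and no size is given for it. HXT5, for a transporter made in slow growth, fell in both intervals (-2.45 ± 0.43 after -1.20 ± 0.43), and HXT7, for a high-affinity transporter whose probe set may read several transcripts, was at -3.12 ± 0.35 after 0.84 ± 0.35 (adjusted p = 0.068). HXK2, for the main hexokinase on glucose, turned round too, with -1.52 ± 0.18 (adjusted p = 0.000683) after 0.65 ± 0.18 (adjusted p = 0.015).

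**Figure D5:**
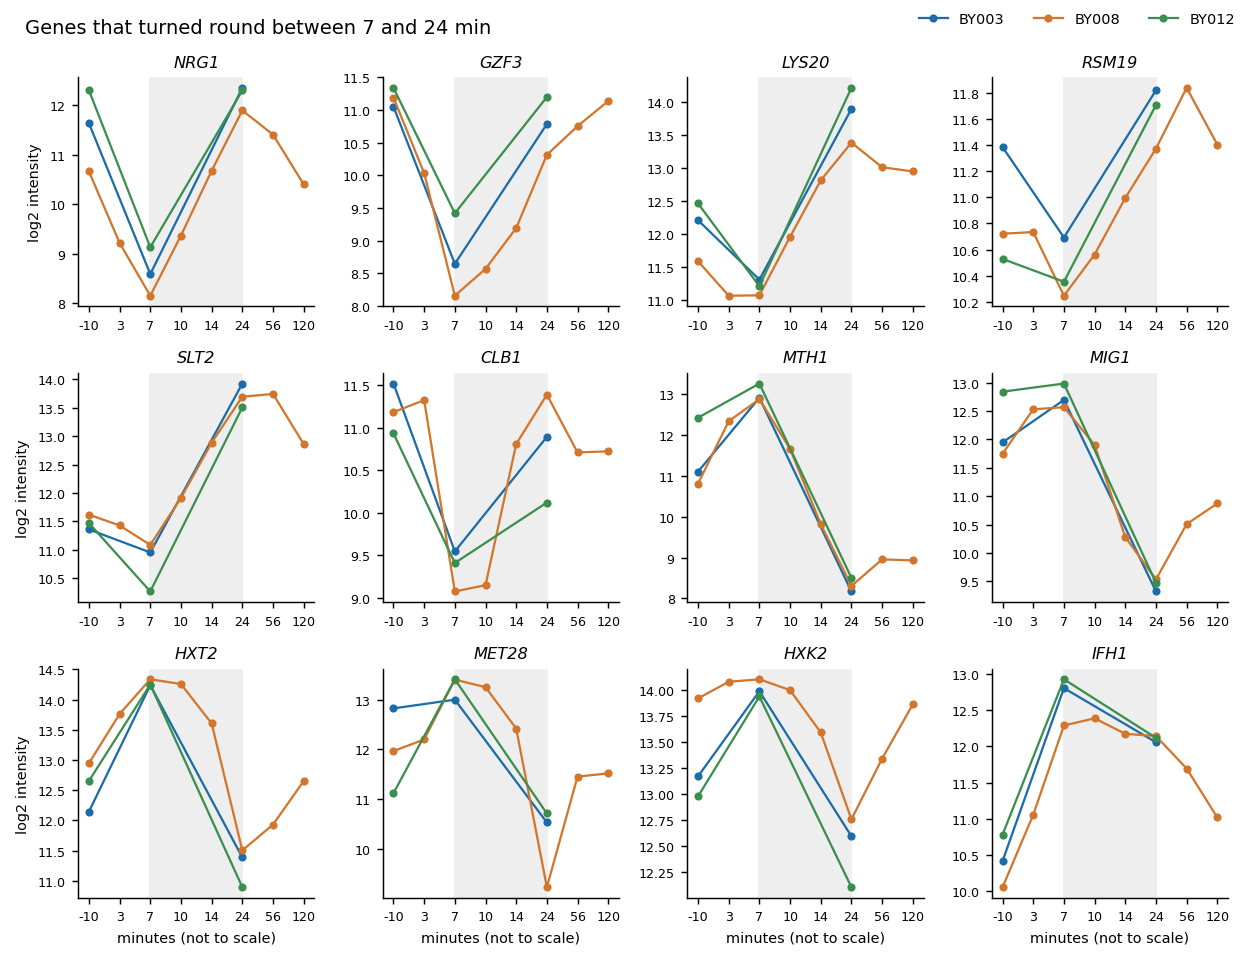
Log2 intensity (vertical axes) against minutes after the pulse (horizontal axes, evenly spaced) for 12 genes whose first response was called and reversed between 7 and 24 min (shaded), 1 line per experiment, with all 8 times in BY008. NRG1 and GZF3 dip and recover, SLT2 and LYS20 climb past their start, and MTH1, MIG1 and HXT2 fall below it.

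Most genes of the tricarboxylic acid (TCA) cycle fell. Of 15 TCA cycle genes 12 fell and 0 rose, with a median of -1.29, and CIT1, for citrate synthase, stood at 10.97, 10.18 and 11.14 at 24 min, against 12.41, 12.75 and 12.72 at 7 min. CIT1 was lower at 24 min in each experiment, most in BY008, with a difference of -1.87 ± 0.22 (adjusted p = 0.000703) after -0.79 ± 0.22, and KGD2, for a subunit of ketoglutarate dehydrogenase, was at -1.72 ± 0.17 after -0.67 ± 0.17. CAT8, for the activator of gluconeogenic genes, stood at 6.38, 6.24 and 6.53 at 24 min, against 10.10, 9.94 and 10.44 at 7 min. The difference was -3.78 ± 0.26 (adjusted p = 9.76e-05) after a first response of -0.34 ± 0.26 that was not called. In BY012 CAT8 was already lower at 7 min than at -10 min (11.46). For glyoxylate cycle and gluconeogenesis 5 of 12 fell and 1 rose (median -0.95), with ACS1, for an acetyl-CoA synthetase, at -1.69 ± 0.24 (adjusted p = 0.0016) and PCK1, for phosphoenolpyruvate carboxykinase, higher by 1.19 ± 0.15 (adjusted p = 0.00099). Of 36 genes for the respiratory chain and ATP synthase 9 (3 to 11) fell and 1 (1 to 2) rose (median -0.18), also a share near that of all genes. COX5B, for the isoform of a cytochrome oxidase subunit made at low oxygen, fell (-2.20 ± 0.17, adjusted p = 0.00014), as CYC7 did, while CYC1, for the main isoform of cytochrome c, rose by 0.80 ± 0.15 (adjusted p = 0.00516). For the list respiratory chain and ATP synthase the count lower was 4 without BY003 and 3 without BY008.

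Of 24 genes for glycolysis and fermentation 7 (3 to 8) fell and 0 (0 to 1) rose (median -0.17), again near the share of all genes. GPM2, for a relative of phosphoglycerate mutase, stood at 7.10, 6.91 and 6.67 at 24 min, against 11.29, 11.31 and 10.91 at 7 min, a difference of -4.28 ± 0.20 (adjusted p = 4.73e-05), and ENO1, for an enolase, was at -0.99 ± 0.13 (adjusted p = 0.00108). In the retrograde response 3 (1 to 3) of 7 rose and 1 fell. RTG3 and RTG1, for the paired activators of that response, rose by 1.11 ± 0.14 and 0.73 ± 0.13 (adjusted p = 0.00112 and adjusted p = 0.00455), and both started after 7 min. The other rise was that of MKS1, which is not one of these activators (0.62 ± 0.15, adjusted p = 0.0143). PDH1, a gene of propionate breakdown, fell (-2.57 ± 0.35, adjusted p = 0.00135) after a first rise of 0.99 ± 0.35. RTG1 lost its call without BY003 (adjusted p from 0.00217 to 0.0761 over all alternatives). For the list glycolysis and fermentation the count lower was 3 without BY003 and 4 without BY008 and after quantile normalization. For the list retrograde response the count higher was 1 without BY003.

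In the list cell wall integrity 9 of 22 rose and 3 (0 to 4) fell, with a median of 0.24 (BY003 0.26, BY008 0.49, BY012 0.03). SLT2, for the pathway's MAP kinase, stood at 13.92, 13.69 and 13.51 at 24 min, against 10.95, 11.09 and 10.27 at 7 min. Each 24 min array was above every 7 min array, and SLT2 turned round, with a rise of 2.94 ± 0.18 (adjusted p = 6.64e-05) after -0.71 ± 0.18 (adjusted p = 0.0123), to end above -10 min (2.22 ± 0.18). CRH1, for an enzyme that joins chitin to glucan, and PIR3, for a wall protein, turned round, with 1.87 ± 0.26 after -0.87 ± 0.26 and 1.46 ± 0.14 after -0.48 ± 0.14. For the list cell wall integrity the count lower was 0 without BY003 and 1 after quantile normalization.

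YPS3, for a cell surface aspartic protease, stood at 11.94, 11.22 and 11.02 at 24 min, against 8.03, 7.80 and 7.56 at 7 min and rose by 3.60 ± 0.19 (adjusted p = 5.06e-05). The times did not overlap for YPS3. SMP1, for a transcription factor related to Rlm1, rose by 2.91 ± 0.23 (adjusted p = 0.000167), and PRM5, for a membrane protein induced by cell wall stress, by 3.45 ± 0.33 (adjusted p = 0.00032). Other genes among the 15 largest rises were HSP30, for a membrane protein that restrains the plasma membrane proton pump, with 3.63 ± 0.48 (adjusted p = 0.0012) after -1.37 ± 0.48, SRL3 with 3.56 ± 0.33 after -1.54 ± 0.33, PDR12, for an exporter of weak organic acids, with 2.97 ± 0.17 after -0.19 ± 0.17, PRM10 with 2.94 ± 0.16 after -0.59 ± 0.16, and YMR244W, a gene without a standard name, with 2.86 ± 0.28 after 1.01 ± 0.28. HSP30 stood at 12.08, 10.53 and 11.66 at 24 min, against 7.63, 8.03 and 7.71 at 7 min. The 24 min arrays of HSP30 were higher in each experiment, while the size of the step varied between experiments more than for BAP2. Other genes among the 15 largest falls were COS111 (-4.51 ± 0.29 after 1.21 ± 0.29), YKR075C (-4.42 ± 0.24 after 1.64 ± 0.24), TDA10 (-4.30 ± 0.21 after -0.31 ± 0.21), EMI2, for a relative of hexokinase (-4.20 ± 0.24 after -0.97 ± 0.24), TMA10 (-4.08 ± 0.29 after 0.31 ± 0.29), STF2 (-3.83 ± 0.18 after -0.84 ± 0.18), GOR1, for glyoxylate reductase (-3.79 ± 0.21 after -0.95 ± 0.21), and YHR140W (-3.43 ± 0.22 after -1.21 ± 0.22). Their adjusted p values were at most 0.000108. COS111 and YKR075C, like MTH1, had been called higher at 7 min.

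Most measured genes of iron uptake rose. Of 18 genes in the iron uptake regulon 12 (5 to 14) rose and 2 (0 to 2) fell, with a median of 0.88 (BY003 1.02, BY008 1.18, BY012 0.48). In the first response 9 were called lower and 2 higher, near the shares of all genes there (42.6% and 18.0%). FRE1, for a surface reductase of iron and copper, stood at 11.72, 12.00 and 10.37 at 24 min, against 9.15, 9.11 and 8.67 at 7 min. The times did not overlap, and FRE1 started after 7 min, with 2.39 ± 0.29 (adjusted p = 0.000777) after -0.16 ± 0.29. FRE4, for another reductase, rose by 2.90 ± 0.50 (adjusted p = 0.00343). ARN1 and ARN2, for carriers of iron bound to siderophores, rose by 1.86 ± 0.32 and 1.56 ± 0.26 (adjusted p = 0.00331 and adjusted p = 0.00285). PHO84, for the high-affinity phosphate transporter, stood at 11.26, 11.31 and 12.58 at 24 min, against 8.88, 8.91 and 10.58 at 7 min. All 24 min arrays were above all 7 min arrays, and its rise of 2.26 ± 0.26 (adjusted p = 0.000686) went on from a first rise of 1.91 ± 0.26. ZRT1, for the high-affinity zinc transporter, rose by 2.33 ± 0.37 (adjusted p = 0.00261) after a called first response of 1.04 ± 0.37. In BY008 ZRT1 stood at 10.01 at -10 min and 9.77 at 7 min, so that its first rise lay in BY003 and BY012 only. In the phosphate regulon 2 (1 to 4) of 14 rose and 3 (1 to 3) fell (median -0.01), shares near those of all genes. PHM8, for a phosphatase, fell (-1.46 ± 0.26, adjusted p = 0.00432). For the list iron uptake regulon the count higher was 5 without BY003 and 7 without BY008. For the list phosphate regulon the count lower was 1 without BY003.

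Genes of the start of the cell cycle fell more often than they rose. In the list G1 cyclins and S-phase entry 11 (6 to 12) of 24 fell and 1 (1 to 3) rose, with a median of -0.40 (BY003 -0.37, BY008 -0.81, BY012 -0.31). SWI4, for the DNA-binding part of the factor that switches on genes at entry into the cycle, stood at 7.64, 8.33 and 7.12 at 24 min, against 9.92, 10.42 and 9.62 at 7 min. SWI4 was highest in BY008 at both times, the times did not overlap, and the difference of -2.29 ± 0.19 (adjusted p = 0.000183) went on from -1.13 ± 0.19. RFA1, for a single-strand DNA binding protein of replication, was at -1.46 ± 0.24 (adjusted p = 0.00268), and PCL2, for a cyclin of the Pho85 kinase, rose by 1.48 ± 0.20 (adjusted p = 0.00139). CLN1, a cyclin gene of the same phase, was at 0.04 ± 0.16 (adjusted p = 0.844) after a first response of -2.10 ± 0.16. CLN3, for the most upstream cyclin, was at -1.07 ± 0.28 (adjusted p = 0.0183). CLN3 lost its call without BY003 and without 24 min BY003, 24 min BY008, 7 min BY003 and 7 min BY012 in turn (adjusted p from 0.0019 to 0.125 over all alternatives). Of 9 histones 6 (1 to 8) fell and 0 rose (median -0.59), HHO1, for the linker histone, among them (-1.76 ± 0.23, adjusted p = 0.00126). For the list G1 cyclins and S-phase entry the count lower was 7 without BY003 and after quantile normalization and 6 without the replicate block. For the list histones the count lower was 1 without BY003 and 3 without BY012 and without the replicate block.

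Of 13 G2 to M genes 4 (1 to 7) rose and 0 fell (median 0.29), where 11 had been called lower at 7 min. CLB1, for a B-type cyclin, stood at 10.89, 11.39 and 10.12 at 24 min, against 9.54, 9.07 and 9.41 at 7 min. Its rise was large in BY008 and small in BY012, with 1.46 ± 0.27 (adjusted p = 0.00481) after -1.87 ± 0.27, and it was not called at 24 against -10 min (-0.41 ± 0.27). CDC6, for a factor that loads the replicative helicase, turned round as well (1.16 ± 0.18, adjusted p = 0.00219, after -1.65 ± 0.18). Of 12 M to G1 genes, CDC6 among them, 1 (0 to 1) rose and 3 (0 to 3) fell, a share of falls near that of all genes. CDC6 lost its call without the replicate block (adjusted p from 0.00109 to 0.051 over all alternatives). For the list G2 to M genes the count higher was 1 without BY003, without BY008 and without the replicate block and 7 without BY012. For the list M to G1 genes the count lower was 0 without BY003 and without BY012 and 1 without BY008, with array medians subtracted and after quantile normalization.

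Among lipid genes, falls outnumbered rises. Of 23 genes for sterol synthesis 12 (5 to 13) fell and 0 (0 to 1) rose (median -0.46), with ERG28, for a scaffold of the ergosterol enzymes, at -2.11 ± 0.18 (adjusted p = 0.000218) and HMG2, for a reductase of the mevalonate route, at -1.15 ± 0.17 (adjusted p = 0.00207). Of 8 genes for fatty acid synthesis 6 (2 to 6) fell and 0 rose (median -0.69). OLE1, for the only fatty acid desaturase of this yeast, stood at 11.63, 11.71 and 11.50 at 24 min, against 13.64, 13.39 and 13.86 at 7 min. The 24 min arrays of OLE1 were tightly grouped and below all 7 min arrays, a difference of -2.02 ± 0.19 (adjusted p = 0.000284) that started after 7 min (-0.22 ± 0.19 before). ACC1, for acetyl-CoA carboxylase, was at -0.83 ± 0.12 (adjusted p = 0.0017). For the list sterol synthesis the count lower was 5 without BY003 and 6 without BY008. For the list fatty acid synthesis the count lower was 2 without BY003.

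For protein glycosylation and translocation 5 (2 to 7) of 29 genes fell and 1 (0 to 1) rose (median -0.07), both below the shares of all genes. PMT3 and PMT5, for protein mannosyltransferases, were at -2.14 ± 0.18 and -1.40 ± 0.21 (adjusted p = 0.000205 and adjusted p = 0.0021). Of 14 genes for the vacuolar ATPase, the proton pump of the vacuole, 8 (0 to 9) fell and 0 rose, with a small median of -0.38 that had 1 sign in each experiment (BY003 -0.36, BY008 -0.31, BY012 -0.41). For the list protein glycosylation and translocation the count lower was 2 without BY003, without BY008, without the replicate block, with array medians subtracted and after quantile normalization and 3 without BY012. For the list vacuolar ATPase the count lower was 0 without BY003, 1 without BY008, 4 without BY012, 2 without the replicate block, 5 with array medians subtracted and 3 after quantile normalization.

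The single arrays of BY008 place these changes within the interval, with no replicates. Of the change from 7 to 24 min, genes called at least 2-fold higher had made a median of 20.9% by 10 min and 59.1% by 14 min. Those called at least 2-fold lower had made 23.4% and 60.6%. The medians are over genes whose BY008 change had the called direction, 177 of 178 higher and all 676 lower. MTH1 stood at 12.88, 11.66, 9.82, 8.30, 8.96 and 8.93 at 7, 10, 14, 24, 56 and 120 min. MEP2 stood at 14.35, 13.38, 11.44, 11.38, 11.80 and 13.90 at 7, 10, 14, 24, 56 and 120 min, and AGP1 at 9.33, 11.12, 13.01, 13.46, 12.97 and 13.72 at 7, 10, 14, 24, 56 and 120 min. The MEP2 array value at 14 min was already near that of 24 min, while MTH1 and AGP1 went on changing. After 24 min the genes that had risen differed by a median of 0.00 at 56 min and -0.49 at 120 min from their 24 min values, and those that had fallen by 0.68 and 1.09. These genes were chosen on arrays that include the 24 min array of BY008, so that part of this return may come from the choice itself.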

How the data were processed

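RNA of 14 samples was hybridised to single-colour Affymetrix Yeast Genome 2.0 arrays. The deposited table holds an intensity per probe set, and per the submitters' processing notes it was made with RMA of the package affy in R 2.10.0. How far it was normalized is not given in the sources used here. The authors' deposited intensity values were used with log2 taken and no further scaling, since equal-rank values differed between arrays (mean SD 0.118 log2), so that the table was not quantile-identical.

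Of 10928 probe sets, 5498 were given to 1 S. cerevisiae gene, 1747 to another organism or several genes and 213 to controls, and 3470 had no listed gene. Genes with several probe sets (47) kept the brightest, which left 5449 genes, and 12 symbols were updated. limma 3.58.1 in R 4.3.3 fitted time and experiment, as a block, to the 9 arrays at -10, 7 and 24 min, with 4 residual degrees of freedom and 3.55 prior ones. The pairing comes from the experiment codes, and same-code arrays at 24 and 7 min deviated together with r of 0.21, 0.35 and 0.44. Alternatives covered the block, scaling, filters, thresholds and leaving out experiments or arrays.

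Named genes were the 15 largest rises and falls with 1 sign in 3 experiments, the 5 largest in each class, up to 4 called members with the largest change in each list, and a short fixed set. The members and the 55 lists were chosen with earlier results of these data known. Of the lists' names 13 were not measured. Probe sets of 120 genes may read several transcripts. P-values measure the spread left after time and experiment are fitted, that is, how far changes over time differ between the 3 experiments. That spread is pooled over all times in the fit, the time before the pulse included.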

Additional observations from a re-analysis of the deposited data

How the results depend on the processing

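Same-code arrays deviated together, so the replicate block was kept as the pairing. With no replicate block 1817 genes were called (718 higher and 1099 lower), 47 of them turned round lower, and 30 of the 208 calls of named genes were lost. The other class counts stayed within 1.5-fold without it. Subtracting array medians gave 544 genes that started higher and 324 that continued higher, and quantile normalization 556 and 357. At an adjusted p under 0.01 there were 1252 calls (411 higher and 841 lower), with 202, 54 and 108 genes that started, continued and turned round higher and 250, 362 and 25 lower. With a log2 difference of at least 1 there were 854 calls (178 higher and 676 lower), with 81, 13 and 37 genes higher and 165, 213 and 22 lower in the same order. Reading the first response from the 3 min array gave 786, 77 and 39 genes higher and 1253 and 40 that started or continued lower. With started taken as under 0.25 log2, 192 started lower. Leaving out 1 experiment or 1 array gave 948 to 2702 for all called genes, 262 to 1126 for rises, 686 to 1576 for falls, 119 to 499 for started higher, 137 to 640 for started lower, 30 to 228 for continued higher, 344 to 789 for continued lower, 63 to 371 for turned round higher, 26 to 83 for turned round lower. No called named gene changed sign under any alternative. Of those not called, 5 changed sign when 1 experiment or array was left out: ATO3 lay between -0.49 and 0.03, CLN1 between -0.13 and 0.17, RPN4 between -0.28 and 0.38, TOD6 between -0.00 and 0.47, and URE2 between -0.03 and 0.25. The cause of these shifts was not tested. A random block, the trend and robust options, averaged probe sets and the filter on dim genes kept the counts of calls and classes within 1.5-fold, as a fit of the 6 arrays alone, which gives no classes, kept the counts of calls. Leaving out the dimmest genes gave no value for the genes it removed and left no median for sporulation. The promoter motif count was not run, since no promoter sequence was supplied. With 3 arrays a time, the number of arrays limits the precision, and a change close to its standard error was not detectable for many genes.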

Other observations

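Genes that mark mating types and sporulation were read as markers of other states of a yeast culture. Of 7 a-specific genes 2 (1 to 2) rose and 0 (0 to 1) fell (median 0.04, mean log2 levels at 24 min from 8.87 to 13.92), and of 4 alpha-specific genes 1 fell and 0 (0 to 1) rose (median -0.25, levels from 6.0 to 9.98). The called member of the second list was MF(ALPHA)1, for the alpha-factor pheromone, with -1.97 ± 0.31 (adjusted p = 0.00254). In the list sporulation, with levels from 4.13 to 9.62, 2 (1 to 3) of 16 rose and 3 (1 to 3) fell (median -0.16). Both shares were below those of all genes. IME2, for a kinase of meiosis, turned round (1.28 ± 0.16, adjusted p = 0.00107, after -0.94 ± 0.16). For the list sporulation the count lower was 1 without BY003, without BY008 and after quantile normalization.

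Of 8 reference genes, which are often used as constant controls, 4 (1 to 4) fell and 1 (0 to 1) rose with a median of -0.32 (BY003 -0.31, BY008 -0.35, BY012 -0.29), beside -0.01 over all genes. PDA1, for a subunit of pyruvate dehydrogenase, stood at 12.66, 13.20 and 12.26 at 24 min, against 13.73, 13.93 and 13.58 at 7 min, a difference of -1.04 ± 0.17 (adjusted p = 0.00311) with no overlap between times. For the list reference genes the count lower was 1 without BY003 and without the replicate block and 2 without BY008.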
